A study of Mus musculus with 4 samples.

Results

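The small heat shock proteins are a family of low molecular weight chaperones built around a conserved alpha-crystallin domain. This report describes the 7 family genes Hspb1, Hspb2, Hspb3, Hspb6, Hspb7, Hspb8 and Cryab in cultured mouse myoblasts. They were chosen by name, as the rows of the deposited expression table whose gene symbol is one of these 7, among 24445 genes in all. The rule is by name and not by level, although the family was picked with earlier results of these data known.

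Small heat shock proteins bind partly unfolded proteins without using ATP and hold them in a state from which ATP-driven chaperones can refold them or pass them on for degradation. They form homo-oligomers and mixed oligomers with each other, and several are regulated by phosphorylation. Skeletal and cardiac muscle are rich in them, where they associate with actin filaments, intermediate filaments, filamins and the Z-disc. Inherited variants of several members cause myopathies or motor neuropathies.

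The study asked how the transcripts of muscle precursor cells differ when Tet2 is missing. Tet2 is a dioxygenase that oxidises 5-methylcytosine in DNA, a step of active DNA demethylation. RNA sequencing was performed on C57BL/6 primary myoblasts, with 2 libraries from WT mice and 2 from Tet2 KO mice, in which exon 3 of Tet2 is deleted in the germline, so that all cells of the animal carry the deletion. The labels give no age, and the study's methods give male mice of 8 to 10 weeks where nothing else is stated. Both groups were grown from satellite cells, the resident stem cells of muscle, which were sorted from hindlimb muscle as CD45-CD11b-CD31-Sca1- CD34+ integrin alpha 7+ cells and kept in proliferation medium on type I collagen for at least 3 days. No differentiation medium was named for these libraries.

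Expression was given as FPKM, a fragment number scaled to transcript length and to all mapped fragments. The table had a single value per gene and group, read here as the authors' value pooled over the 2 libraries of the group. The study's methods describe testing KO and WT samples in pairs, so whether a value stands for both libraries or for 1 could not be settled. No value of a single library was used, so no standard deviation, no overlap between libraries and no test across libraries stands beside any difference below. Each difference is a description of these values. It is given as log2((Tet2 KO FPKM + 1) / (WT FPKM + 1)), called the log2 ratio, in which negative values are lower in Tet2 KO and the added 1 makes the difference of weakly expressed genes look smaller than it is. In bulk RNA, fewer cells of a type and less RNA per cell cannot be told apart.

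The promoters of the members are shown first, since all 7 transcripts were lower in Tet2 KO. RefSeq promoters, from 250 bases before to 50 bases after a gene start in GRCm38.p6, were matched by symbol for 5 of the 7 members, not for Hspb2 and Cryab. Hspb6 had 2 promoters, which makes 6 in all. Below are the 250 bases before the start of the member with the highest WT level, Hspb8, of the other members at least 2-fold lower, Hspb3 and Hspb7, and of Hspb1, which holds the most heat shock matches. Capitals mark matches to CANNTG, the E box read by MyoD and myogenin, to GAANNTTC, a head-to-head pair of heat shock element units, and to the MEF2 site. Both strands were searched.
Hspb8, chr5:116422865-116423114, minus strand: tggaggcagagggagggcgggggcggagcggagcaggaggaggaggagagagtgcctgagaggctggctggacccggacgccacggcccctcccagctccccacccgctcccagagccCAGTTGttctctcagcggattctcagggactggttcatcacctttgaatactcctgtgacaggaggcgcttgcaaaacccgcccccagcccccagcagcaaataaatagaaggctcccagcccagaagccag
Hspb3, chr13:113663677-113663926, minus strand: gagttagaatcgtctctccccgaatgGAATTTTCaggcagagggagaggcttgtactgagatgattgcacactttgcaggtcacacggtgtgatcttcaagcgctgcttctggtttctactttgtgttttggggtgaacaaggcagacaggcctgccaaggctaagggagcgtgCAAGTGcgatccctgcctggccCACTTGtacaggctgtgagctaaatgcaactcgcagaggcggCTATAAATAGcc
Hspb7, chr4:141420529-141420778, plus strand: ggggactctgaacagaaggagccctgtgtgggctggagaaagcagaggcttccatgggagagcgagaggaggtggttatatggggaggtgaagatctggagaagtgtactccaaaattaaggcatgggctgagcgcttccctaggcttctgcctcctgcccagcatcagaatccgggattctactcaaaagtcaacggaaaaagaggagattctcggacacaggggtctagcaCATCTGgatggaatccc
Hspb1, chr5:135887669-135887918, plus strand: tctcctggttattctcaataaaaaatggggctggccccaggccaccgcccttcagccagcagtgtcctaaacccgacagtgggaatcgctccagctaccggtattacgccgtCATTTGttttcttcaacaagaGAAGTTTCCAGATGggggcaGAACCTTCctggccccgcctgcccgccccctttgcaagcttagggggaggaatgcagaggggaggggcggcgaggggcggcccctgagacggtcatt

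An E box was found in the promoters of Hspb1, Hspb3, Hspb7 and Hspb8, and in neither promoter of Hspb6. Of all 32841 promoters of the same length, 72.3% held one. The heat shock pair GAANNTTC, found in 7.86% of all promoters, was present in Hspb1 at 2 positions and once each in Hspb3, Hspb8 and the second promoter of Hspb6. The tail-to-tail pair TTCNNGAA, found in 8.52% of all promoters, and the CArG box, found in 1.63%, were not in any of the 6. Hspb3 alone held a MEF2 site, 12 bases before the start, and 3.19% of all promoters did. A match of letters is a description and not a bound site.

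The same 8 letters gaagtttc stood in Hspb1, in the second Hspb6 promoter and in Hspb8. They were singled out because they recurred among these heat shock matches. The 1.21% of all promoters that held them in either orientation is therefore a description only. The 30 bases around each match are shown to compare their flanks, with the 8 letters in capitals. In Hspb1 they began 117 bases and in Hspb6 120 bases before the start, whereas in Hspb8 they lay just after it.
Hspb1, chr5:135887791-135887820, plus strand: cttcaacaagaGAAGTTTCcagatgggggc
Hspb6, chr7:30553170-30553199, plus strand: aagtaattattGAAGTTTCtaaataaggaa
Hspb8, chr5:116422844-116422873, minus strand: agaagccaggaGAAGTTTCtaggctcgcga

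The flanks differed among the genes. The promoters held between 6 CpG sites in Hspb7 and 17 in the first promoter of Hspb6, against a median of 7 over all promoters. Hspb1 held 14, Hspb8 13, the second Hspb6 promoter 11 and Hspb3 9.

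In WT myoblasts the members covered a wide range of levels. FPKM is scaled to transcript length, so levels of different genes were set side by side. Hspb8 was highest with 213 FPKM, followed by Hspb1 with 119.8, Cryab with 111 and Hspb2 with 60.9. Hspb3 had 10.6, Hspb7 2.23 and Hspb6 1.77 FPKM. The 4 abundant members made up 97.2% of the summed FPKM of the family in WT and 98.1% in Tet2 KO.

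In Tet2 KO every member had a lower value than in WT, and the order of the 5 highest genes was the same. The summed FPKM of the 7 genes was 281.7 in Tet2 KO and 520.03 in WT, which is 54.2% of the WT sum. Hspb8 supplied 41.0% of the family sum in WT and 31.7% in Tet2 KO. Hspb1 supplied 23.0% in WT and 29.9% in Tet2 KO. The leading gene of the family was thus less dominant in Tet2 KO. Hspb6 and Hspb7, the 2 lowest genes, changed places, with Hspb7 above Hspb6 in WT and below it in Tet2 KO.

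**Figure D1:**
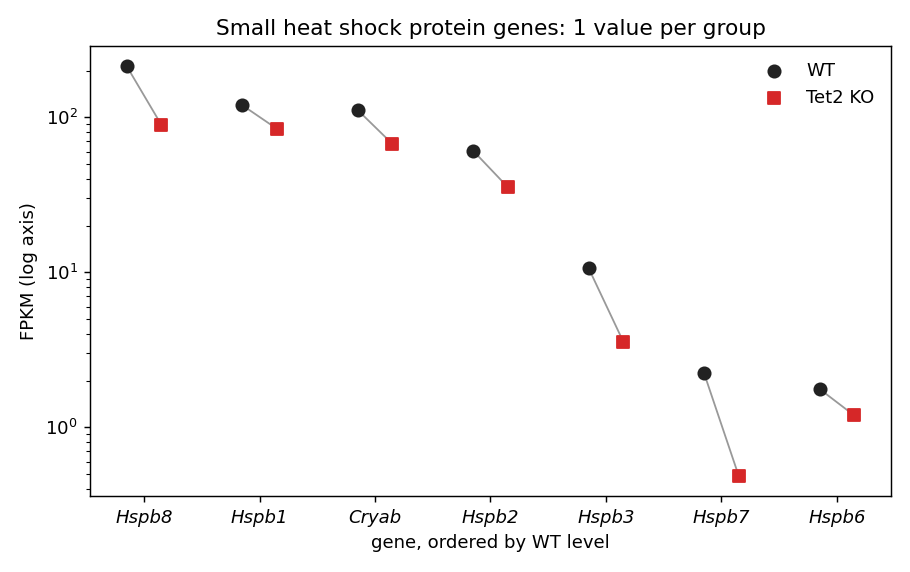
FPKM of the 7 small heat shock protein genes on a log axis, ordered by WT level, with 1 value per group: black circles WT, red squares Tet2 KO, joined for each gene. All 7 Tet2 KO values lie below their WT values, with the shortest drops at Hspb1 and Hspb6 and the longest at Hspb7, from 2.23 to 0.486 FPKM.

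The depth behind these values was read from the lowest values of the table. In genes with a single annotated transcript, the FPKM multiplied by the effective length, that is the transcript length less the mean fragment length, fell on whole steps. Of such low values, 80.3% in Tet2 KO and 79.9% in WT lay within 0.1 of a whole number of steps. The step and the mean fragment length were fitted to the values at 1 step, which are counted in these shares. The shares are therefore partly set by the fit. One step corresponded to 0.0178 FPKM in Tet2 KO against 0.0175 in WT for 1 fragment on an effective kilobase. That makes scaling totals of about 56200000 and 57200000 fragments, which need not be the numbers sequenced per group. Fragment numbers per gene below are estimates on this basis. Their 95% exact intervals are on the log2 scale without the added 1. They cover counting error only, with no part for the spread between animals, cultures or libraries.

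**Figure D2:**
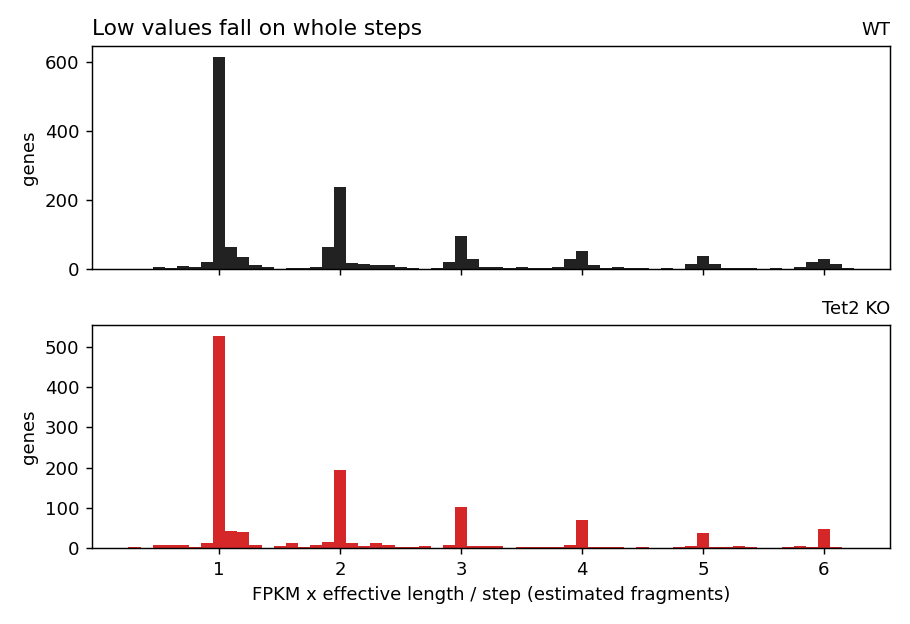
Number of genes (vertical axis) by FPKM multiplied by effective length and divided by the step, in estimated fragments (horizontal axis), for genes with 1 annotated transcript, WT above and Tet2 KO below. The values pile up at whole numbers, with 615 genes at 1 fragment in WT and 528 in Tet2 KO. The step was fitted to the pile at 1 fragment.

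With these values, 3 of the 7 members were at least 2-fold lower in Tet2 KO (log2 ratio of -1 or less), namely Hspb3, Hspb8 and Hspb7. Of the 11692 genes whose FPKM averaged over both groups reached 1, 142 (1.21%) were at least 2-fold lower. No member was at least 2-fold higher, against 243 genes (2.08%) of the table. At a limit of 1.5-fold, 5 members were lower, Hspb2 and Cryab being added, against 338 genes (2.89%). The median log2 ratio of the 7 members was -0.76, and that of all genes was -0.0044. All genes were split nearly evenly in sign, with 51.2% lower in Tet2 KO. All 7 members were past the limit of 1 FPKM on the mean, Hspb7 only through its WT value. With Hspb7 left out the median was -0.74.

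**Figure D3:**
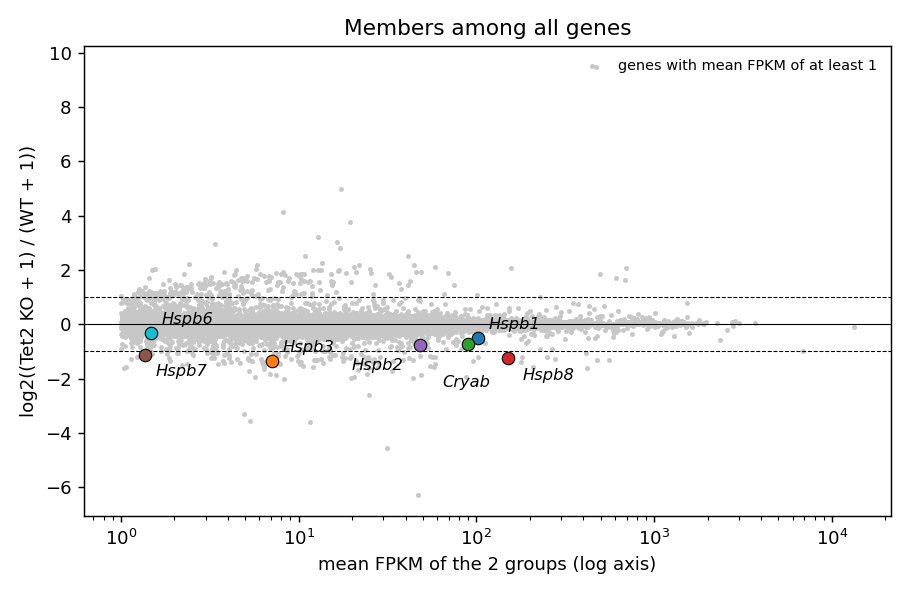
Log2 ratio of Tet2 KO to WT (vertical axis, FPKM + 1) against the mean FPKM of the 2 groups (horizontal log axis) for genes averaging 1 FPKM or more, in grey, and the 7 members in colour with names; dashed lines mark 2-fold. Hspb3, Hspb8 and Hspb7 lie below the lower dashed line and the other 4 members between it and zero.

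Hspb8 encodes the partner of the co-chaperone Bag3 in chaperone-assisted selective autophagy, a route that clears damaged filamin from the Z-disc. It lies on chromosome 5 from 116858500 to 116872873 of mm9, on the minus strand, with 3 exons and a transcript of 1816 bases. Hspb8 had 89.3 FPKM in Tet2 KO against 213 in WT, a log2 ratio of -1.25. The Tet2 KO value was 41.9% of the WT value. These correspond to about 8074 and 19592 fragments, with a counting interval of -1.29 to -1.22. Hspb8 stood at place 421 of the table by WT level and at place 1057 by Tet2 KO level. Among 957 genes whose mean FPKM was within 2-fold of its own, 5 (0.522%) had a lower log2 ratio.

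The machinery that works with Hspb8 was nearer to WT. Bag3 had 13.02 FPKM in Tet2 KO against 15.8 in WT, a log2 ratio of -0.26. The ratio of Hspb8 to Bag3 FPKM was 6.86 in Tet2 KO and 13.5 in WT. Over the 14 genes of a list for chaperone-assisted selective autophagy, 11 were lower and 3 higher, none reached 2-fold with the added 1 and the median log2 ratio was -0.12. Synpo2, the gene of a Bag3 partner at the Z-disc, had 1.19 and 2.49 FPKM (-0.67) and passed 2-fold without the added 1 (-1.07). Its lowest gene was Flnc, the muscle filamin that this route clears, with 56.4 and 96.2 FPKM (-0.76). Its highest was Stub1, the ubiquitin ligase CHIP, at 0.06. Hspa8, the constitutive Hsc70 that takes over clients, had 1450 FPKM in Tet2 KO against 1572 in WT (-0.12). So Hspb8 was lower by a larger log2 ratio than each of the 14 listed partners and clients.

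Hspb3 and Hspb2 are muscle-enriched members that bind each other in a complex with a fixed stoichiometry, and Hspb2 was named for binding the myotonic dystrophy protein kinase. Hspb3 is a gene with 1 exon on the minus strand of chromosome 13, from 114453104 to 114453884. Hspb3 had 3.57 FPKM in Tet2 KO against 10.6 in WT, with a log2 ratio of -1.35, the lowest of the family on this scale. The estimated fragments were 115 and 348, which gave a counting interval of -1.89 to -1.27. Of 3909 genes with a mean FPKM within 2-fold, 26 (0.665%) had a lower ratio.

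Hspb2 has 2 exons and a transcript of 840 bases on the minus strand of chromosome 9, from 50559177 to 50560459. Hspb2 had 35.4 FPKM in Tet2 KO against 60.9 in WT, with a log2 ratio of -0.76 and about 1259 and 2196 fragments. The counting interval was -0.88 to -0.68, which lies apart from that of Hspb3. Among 2971 genes of like level, 44 (1.48%) had a lower ratio. The transcript of Hspb2 was the more abundant of the pair in both groups, 9.92 times Hspb3 in Tet2 KO and 5.73 times in WT.

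Cryab encodes alpha B-crystallin, the chaperone of desmin and titin that also serves the eye lens. Its longest transcript has 3 exons and lies on the plus strand of chromosome 9, from 50560863 to 50564738. Cryab had 67.4 FPKM in Tet2 KO against 111 in WT, a log2 ratio of -0.72. With the shorter of its full-length transcripts, of 830 bases, this corresponds to about 2359 and 3956 fragments and a counting interval of -0.80 to -0.65. Of 1619 genes of like level, 22 (1.36%) had a lower ratio.

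Hspb2 and Cryab are arranged head to head. The Hspb2 start and the first Cryab start are separated by 403 bases, and the genes are read away from each other. In the GENCODE vM1 annotation their exons do not overlap, although the table gave both genes 1 shared interval. The annotation behind the authors' values was not given. How their processing shared reads between the 2 genes was not tested. Cryab had 1.90 times the FPKM of Hspb2 in Tet2 KO and 1.83 times in WT. The log2 ratios of the pair differed by less than the width of either counting interval. The nearest other gene, 2310030G06Rik, 4550 bases away, had 0.636 FPKM in Tet2 KO against 1.64 in WT (-0.69). On the other side 1110032A03Rik, 6192 bases away, had 2.10 and 2.22 FPKM (-0.05).

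**Figure D4:**
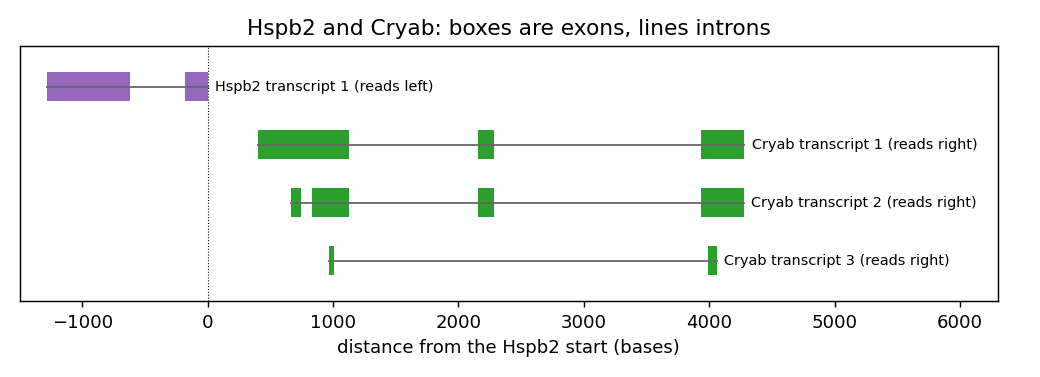
Exons (boxes) and introns (lines) in GENCODE vM1 of the Hspb2 transcript, purple, and the 3 Cryab transcripts, green, by distance in bases from the Hspb2 start (dotted line). The annotation behind the authors' values was not given. The transcripts run in opposite directions from a gap of 403 bases, and no Hspb2 exon overlaps a Cryab exon.

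Hspb1 encodes the mouse protein Hsp25, which binds actin filaments and is phosphorylated by Mapkapk2 downstream of p38. It lies on the plus strand of chromosome 5, from 136363789 to 136365433, with 3 annotated coding transcripts of 2 to 4 exons. Hspb1 had 84.4 FPKM in Tet2 KO against 119.8 in WT, with a log2 ratio of -0.50. By its shortest transcript, of 722 bases, about 2439 and 3514 fragments stood behind these values, with a counting interval of -0.58 to -0.43. Among 1407 genes of like level, 32 (2.27%) had a lower ratio. Hspb1 was the abundant member with the smallest log2 ratio.

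The Hspb1 values are uncertain for another reason. Of the 930 bases of its longest transcript, 800 (86.0%) have a near-identical copy on chromosome 13, in stretches from 45173739 to 45174056 and from 45174056 to 45174537 with 99.1% and 99.8% identity. The annotation there names the pseudogene Hsp25-ps1 and, over the second stretch, the coding gene Gm9817. How the authors' alignment shared reads between the gene and the copy was not tested. No copy of at least 100 bases and 90% identity was found for the longest transcripts of the other 6 members.

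Hspb7 and Hspb6 were the weakly expressed members. Hspb7, a partner of filamin C known from heart and skeletal muscle, has 3 exons and 2769 bases on the plus strand of chromosome 4, from 140976694 to 140981225. Hspb7 had 0.486 FPKM in Tet2 KO against 2.23 in WT, with a log2 ratio of -1.12. Without the added 1 the log2 ratio was -2.20, the lowest of the family, and the Tet2 KO value was 21.8% of the WT value. About 70 and 327 fragments gave a counting interval of -2.59 to -1.82. Of 1550 genes of like level, 9 (0.581%) had a lower ratio. The order of Hspb3 and Hspb7 as lowest member thus depended on the added 1.

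Hspb6, also named Hsp20, is known from smooth and cardiac muscle, where it is a target of cyclic nucleotide-dependent kinases. It lies on the plus strand of chromosome 7, from 31338321 to 31340458, with 1 coding and 3 processed transcripts. Hspb6 had 1.19 FPKM in Tet2 KO against 1.77 in WT, with a log2 ratio of -0.34, the smallest of the family. Without the added 1 it was -0.57, and Hspb1 was then the smallest at -0.51. The estimated 77 and 117 fragments gave a counting interval of -1.01 to -0.15. Of 1719 genes of like level, 193 (11.2%) had a lower ratio. Hspb6 therefore stood least apart from other genes of its level.

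The members lie on 5 chromosomes, and their neighbours in the table were examined to see whether whole regions were lower. Of 12 neighbouring genes that are no members, 6 had a mean FPKM of at least 1. With the added 1 none of them was at least 2-fold lower or higher, and their median log2 ratio was -0.02, in a range of -0.69 to 0.11. The lowest was 2310030G06Rik, beside Hspb2 and Cryab, which reached a mean of 1 FPKM only through its WT value. Without the added 1 it passed 2-fold (-1.37), a larger difference than that of Hspb2 (-0.78) or Cryab (-0.72) on that scale. No counting interval was computed for this weakly expressed gene. Ywhag, beside Hspb1, had 85.7 FPKM in Tet2 KO against 85.1 in WT (0.01). Lin37 lies 1 base from Hspb6 on the opposite strand and had 7.79 and 8.38 FPKM (-0.09). Next to Hspb3, Snx18 had a log2 ratio of 0.07 and Arl15 of 0.11. The 6 remaining neighbours were below the limit, among them Srrm3 beside Hspb1, Gm38670 beside Hspb6, Gm694 beside Hspb7, and B230112J18Rik and Srrm4 around Hspb8. Srrm4 was the highest of them with 0.176 and 0.427 FPKM. Gm38670, on the other side of Hspb6, was listed at 0 in both groups. Strand-specific counting was not stated, so reads of overlapping opposite transcripts could not be separated.

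Of 4 other genes listed beside the family, 3 averaged below 1 FPKM. Hspb11, a component of intraflagellar transport that is distant from the family, had 19.4 FPKM in Tet2 KO against 20.9 in WT, with a log2 ratio of -0.10. Hspb9, a testis member, had 0.721 and 0.741 FPKM, and Odf1, of the sperm tail, had 0.0199 and 0.0389. Cryaa, the lens alpha A-crystallin, was listed at 0 in WT and at 0.0388 FPKM in Tet2 KO.

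The remaining chaperones were examined as 2 lists. Over 29 genes of the heat shock response, with the Hsp70, Hsp90 and Hsp40 families and the factor Hsf1, 15 were lower and 14 higher, none reached 1.5-fold on the scale with the added 1 and the median log2 ratio was -0.0041. Dnajb5 was lowest, with 5.01 FPKM in Tet2 KO against 7.94 in WT (-0.57), and passed 1.5-fold without the added 1 (-0.66). Hspa1b, an inducible Hsp70, was highest, with 7.11 and 5.01 FPKM (0.43). Hsf1 itself had 20.6 and 21.2 FPKM (-0.04). The 14 subunits of the chaperonin and prefoldin, which fold actin and tubulin, had a median of -0.01 and ranged from -0.08 in Vbp1 to 0.07 in Pfdn6. None of these 43 genes had a log2 ratio as low as the median of the small heat shock proteins.

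Proteins that small heat shock proteins guard in muscle were listed as cytoskeletal clients, together with the co-chaperone gene Bag3. Of the 16 genes listed, 14 had a mean FPKM of at least 1. Of these 14, Bag3 among them, 12 were lower, 2 were higher, and the median log2 ratio was -0.58. Acta1, skeletal muscle actin, had 207 FPKM in Tet2 KO against 629 in WT (-1.60). Actn2, the Z-disc cross-linker, had 13.4 and 42.3 FPKM (-1.59), and Ldb3, another Z-disc protein, had 6.61 and 18.0 FPKM (-1.32). These 3 were the clients at least 2-fold lower with the added 1. Myot, of the Z-disc protein myotilin, had 0.657 and 2.15 FPKM (-0.93) and passed 2-fold without it (-1.71). Myot reached a mean of 1 FPKM only through its WT value. Des, the muscle intermediate filament bound by Cryab, had 372 and 449 FPKM (-0.27). Actb, the cytoplasmic actin, was highest with 2271 and 2219 FPKM (0.03). Flnc and Bag3 stand on this list as well as on that for chaperone-assisted selective autophagy.

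Among 12 regulators and kinases linked to the members, 9 were lower and 3 higher, with a median log2 ratio of -0.09. The 2 at least 2-fold lower were the myogenic factors Mef2c, with 11.1 FPKM in Tet2 KO against 27.8 in WT (-1.26), and Myog, the gene of myogenin, with 268 and 554 FPKM (-1.04). Mapkapk3, a kinase that phosphorylates Hsp25, was highest with 6.56 and 2.98 FPKM (0.92, or 1.14 without the added 1). Myod1, the gene of MyoD, had 313 and 336 FPKM (-0.10).

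The labelled cell type was checked against its markers. All 10 myoblast markers were expressed in both groups, with summed levels of 1663 FPKM in Tet2 KO against 1778 in WT and a median log2 ratio of -0.10. Pax7 had 10.98 and 11.13 FPKM and Itga7, used in the sort, 190.1 and 199.0 FPKM. Ncam1 was the lowest at -0.65 and Vcam1 the highest at 0.28. Genes of differentiated muscle, which mark cells leaving the proliferating state, were also present in WT. All 12 were lower in Tet2 KO, 10 of them at least 2-fold, with summed levels of 704 and 1854 FPKM and a median of -1.34. They ran from Myh1, an adult myosin heavy chain with 20.5 and 77.1 FPKM (-1.86), to Ckm, the muscle creatine kinase, with 5.40 and 11.2 FPKM (-0.93). The others at least 2-fold lower were the myosin genes Myh8, Myh3 and Myh2, the calcium store protein gene Casq2, the thick filament gene Mybph, the troponin genes Tnnt3 and Tnni2, the light chain gene Mylpf and Tmem8c, the gene of the fusion protein myomaker. Of these, Myh2 had 0.258 and 2.02 FPKM and reached a mean of 1 FPKM only through its WT value. The part of the genes of differentiated muscle in the lower small heat shock protein values was not tested.

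Markers of cells outside the sort also differed. All 12 leukocyte markers were higher in Tet2 KO, 9 of them at least 2-fold, with summed levels of 475 FPKM in Tet2 KO against 121 in WT and a median log2 ratio of 1.59. None was at 0 in either group. Ptprc, which encodes CD45, had 5.67 and 1.36 FPKM and Itgam, which encodes CD11b, had 10.1 and 2.09 FPKM, although the sort excluded cells with either protein. Ly6a, which encodes Sca1, another protein the sort excluded, had 287.8 and 278.0 FPKM. Cd14 was the lowest (0.88) and Lyz2 the highest (2.07). Adgre1 (1.45), Fcer1g (1.58), Csf1r (1.60), Tyrobp (1.85), Cd52 (1.89) and Ctss (1.93) were the other markers at least 2-fold higher, along with Ptprc and Itgam (1.84). Adgre1 had 3.67 and 0.712 FPKM and reached a mean of 1 FPKM only through its Tet2 KO value. Of the fibroblast markers, 6 of 8 had a mean FPKM of at least 1, with a median of 0.25 and a range of 0.05 in Ly6a to 0.95 in Dcn. Of 10 smooth muscle and pericyte markers, 6 did, with a median of -0.18 and a range of -0.69 in Acta2 to 0.27 in Pdgfrb. Of 6 endothelial markers, Pecam1 alone did (-0.08). The part of these cells in the result was not tested.

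**Figure D5:**
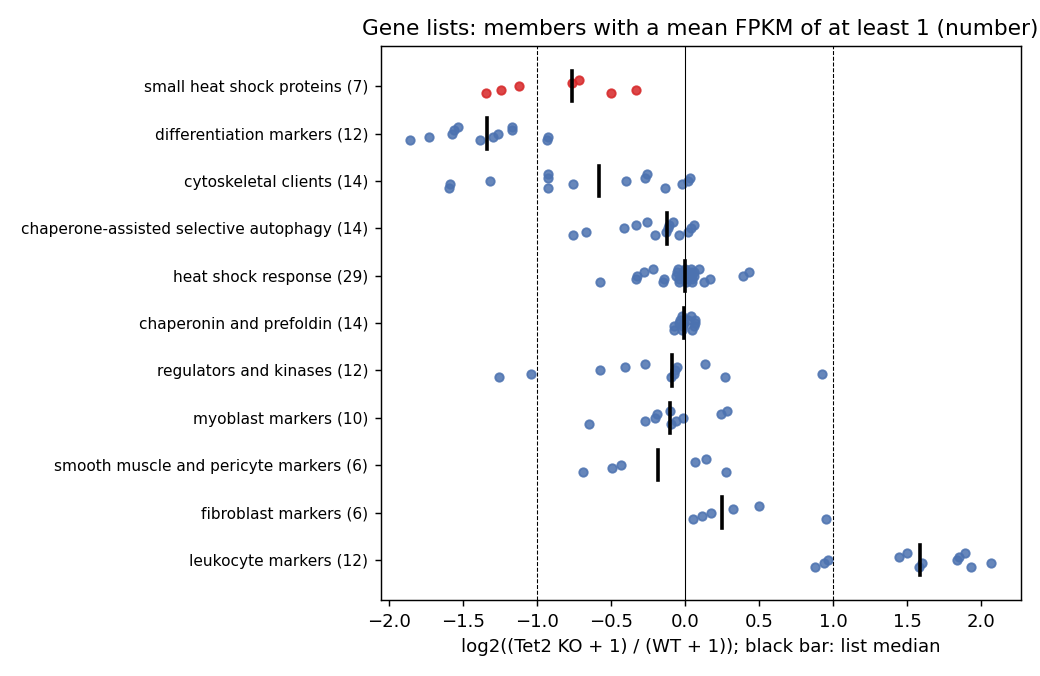
Log2 ratio of Tet2 KO to WT (horizontal axis, FPKM + 1) of each gene averaging 1 FPKM or more, by list, with the number of such genes in brackets; points are genes, black bars are list medians, dashed lines mark 2-fold. The small heat shock proteins (red, median -0.76) lie between the differentiation markers (-1.34) and the cytoskeletal clients (-0.58), and the heat shock response and the chaperonin centre on 0.

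The targeted gene gave no check of the group labels at the gene level. Tet2 had 5.79 FPKM in Tet2 KO against 6.64 in WT (-0.17). This value covers all exons together, and exon 3 alone was not examined. How far the loss of that exon should lower the value was not worked out. Its relatives Tet1, with 0.364 and 0.484 FPKM (-0.12), and Tet3, with 3.70 and 3.39 FPKM (0.10), were near WT.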

How the data were processed

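RNA of 4 libraries, 2 per group, was prepared by the authors with a TruSeq kit. Per the study's methods, read pairs were trimmed, mapped to mm9 with TopHat2 2.0.13 and quantified with Cuffdiff 2.2.1, and the gene annotation was not given in the sources used here. The deposited FPKM values were 1 per gene and group, scaled by the authors for transcript length and mapped fragments, and were read as pooled over the libraries of a group. How libraries were merged is not described, and the methods speak of pairs of samples. Further columns hold the authors' own log2 ratio, test statistic, p-value and q-value per gene, which were not used. Whether the 2 libraries of a group came from separate animals was not stated.

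The pseudocount was 1, genes whose FPKM averaged over both groups reached 1 were compared, and 2-fold was the limit for calling a gene lower or higher. The fold is understated for low genes. Genes of like level had a mean FPKM within 2-fold of the member's. The 7 members and the 14 gene lists (the members among them) were chosen with earlier results of these data known. Named were all members, the other genes listed beside the family, the nearest genes beside the members, Tet2, and of each other list its lowest and highest gene and genes past 2-fold. Some genes this rule selects are not reported here. Further genes were named after their values were seen (Tet1, Tet3 and, as partners, targets or markers of the members' cells, Bag3, Synpo2, Myot, Hspa8, Hsf1, Des, Myod1, Pax7, Itga7, Ptprc and Itgam).

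Fragments per gene were estimated from the spacing of low values in genes with 1 transcript of 700 to 9000 bases. The step set in simulated data was recovered closely, but those data held whole fragment numbers by design. They did not model values merged over libraries. Intervals are Clopper-Pearson intervals of the Tet2 KO share of fragments at 95%. Structure came from GENCODE vM1 on the same build and copies from BLAST+ 2.17.0. Promoters are RefSeq, GRCm38.p6, used for sequence only. Computations ran in Python 3.11.15 with scipy 1.17.1, pandas 2.3.3, numpy 2.4.6 and matplotlib 3.10.9. Alternatives were other pseudocounts, another limit on the mean or none, TPM, median centring, a 1.5-fold limit and each member left out.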

Additional observations from a re-analysis of the deposited data

How the results depend on the processing

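The ratios of single members were rerun with other pseudocounts, TPM and median centring. No sign turned, but these alternatives could hardly turn one. A pseudocount cannot change which group is lower, and the median used for centring was -0.0044. Of 28 alternative values of the 7 ratios, 21 stayed within 0.1, and the 7 that moved further belonged to Hspb3, Hspb6 and Hspb7. With no pseudocount they were -1.57, -0.57 and -2.20. At a limit of 1.5-fold in place of 2-fold, 5 members were lower, and over all genes 338 were lower and 435 higher. The genes at least 2-fold lower numbered 215 with a pseudocount of 0.1 and 224 with none, and 109 were at least 2-fold higher at a mean FPKM of at least 5, where 5 members remained in the comparison. The median of the members was -0.94 with Hspb1, Hspb6 or Cryab left out and -0.92 with Hspb2 left out. With 7 genes the median moves with its neighbours in order. No paired analysis was possible because the table held 1 value per group, so leaving out single libraries was not run either. Depth limited Hspb6, Hspb7 and Hspb3 most, with 70 to 115 estimated fragments in Tet2 KO.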
